A study of Mus musculus with 4 samples.

Results

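Small leucine-rich proteoglycans are secreted proteins of connective tissue, and 7 of their genes are described here: Dcn (decorin), Bgn (biglycan), Aspn (asporin), Lum (lumican), Fmod (fibromodulin), Prelp (prolargin) and Ogn (osteoglycin, also called mimecan). Every probe set of the array whose only gene symbol was one of these 7 was taken. This gave 18 of 34945 single-symbol probe sets and 7 of 18193 genes, and no probe set listed a member beside another gene. The tissue was tibialis anterior, a muscle at the front of the shin, from C57BL/6J mice, measured on 4 Affymetrix mouse genome arrays with 1 array per group. The groups were mdx/MMP-2-/- mice (mdx/MMP-2 null in the plots) at 3 months, mdx mice at 3 months, mdx/MMP-2-/- mice at 1 month and mdx mice at 1 month. All 4 groups thus carry the mdx defect in dystrophin, a model of Duchenne muscular dystrophy, and no muscle with dystrophin is among them. The labels name no promoter or Cre for the loss of MMP-2, a secreted gelatinase, and do not say how many animals gave each RNA.

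The proteins of this family share a core of leucine-rich repeats that curves around collagen fibrils. Through this core they set the thickness and spacing of fibrils, and several also hold growth factors of the TGF-beta family in the matrix. In muscle they are made mainly by fibroblasts of the connective tissue between fibres, and decorin and biglycan have both been studied in dystrophic muscle. Decorin, biglycan and asporin form class I of the family. Decorin and biglycan carry chondroitin or dermatan sulfate chains, which asporin lacks. Lumican and fibromodulin, of class II, can carry keratan sulfate, and prolargin of the same class binds heparan sulfate through its N-terminal region. Osteoglycin belongs to class III.

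Most of these genes lie side by side in the mouse genome, as the RefSeq table for GRCm38.p6 shows. On chromosome 10, Dcn is followed by Lum, Kera (keratocan) and Epyc (epiphycan), which all belong to the family. Chromosome 13 holds Ecm2, Aspn, Omd (osteomodulin) and Ogn in that order, and chromosome 1 holds Optc (opticin), Prelp and Fmod. Bgn stands apart from the others on the X chromosome, between Haus7 and Atp2b3.

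RefSeq promoter sequences were at hand for 5 members. The 250 bases before the start of transcription are shown for Bgn, Aspn and Fmod. Bgn had the largest differences of the 7 by age in mdx and by genotype at 3 months. Aspn is its relative in class I, and Fmod is a class II member whose probe sets mostly differed little. Capitals mark the GC box (GGGCGG) in Bgn, the TATA box (TATAAA) in Aspn and the Smad box (CAGAC) in Fmod, on either strand.
Bgn promoter, chrX:73483351-73483600, + strand: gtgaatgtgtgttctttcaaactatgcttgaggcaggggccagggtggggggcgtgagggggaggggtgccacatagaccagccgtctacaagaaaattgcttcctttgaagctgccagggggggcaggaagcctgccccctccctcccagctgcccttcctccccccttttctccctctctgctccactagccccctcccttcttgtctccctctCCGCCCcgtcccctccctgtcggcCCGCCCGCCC
Aspn promoter, chr13:49544193-49544442, + strand: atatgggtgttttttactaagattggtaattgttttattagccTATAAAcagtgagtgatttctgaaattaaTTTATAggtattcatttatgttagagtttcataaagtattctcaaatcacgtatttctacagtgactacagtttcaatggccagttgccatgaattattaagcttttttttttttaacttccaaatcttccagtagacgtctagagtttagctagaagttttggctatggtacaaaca
Fmod promoter, chr1:134037004-134037253, + strand: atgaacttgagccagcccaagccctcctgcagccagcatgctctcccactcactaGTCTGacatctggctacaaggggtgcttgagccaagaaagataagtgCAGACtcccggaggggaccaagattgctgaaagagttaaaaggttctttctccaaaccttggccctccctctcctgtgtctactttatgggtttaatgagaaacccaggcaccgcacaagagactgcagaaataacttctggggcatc
The Bgn window held 3 GC boxes, of which the last 2 overlap, and no TATA box, Smad box or AP-1 site (the last searched as TGANTCA). GC made up 64.4% of the Bgn window, 30.0% of that of Aspn and 51.2% of that of Fmod, against a median of 52.4% over 32851 promoters. Aspn held 2 TATA boxes and none to the other motifs named, and Fmod held 2 Smad boxes. Of all promoters, 32.7% held a GC box, 12.4% a TATA box, 42.2% a Smad box and 6.75% an AP-1 match, so these matches are common and mark no site of binding. Prelp held 1 Smad box and Ogn 2 overlapping TATA boxes.

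Signals are MAS5 intensities, scaled here so that all 4 arrays have the same distribution (quantile normalization), and signals below 17.4 were raised to that floor. All 18 probe sets stood above the floor on all 4 arrays. With 1 array per group there are no replicates: no difference between a pair of arrays has a test, and "higher" and "lower" describe these arrays. Differences are on the log2 scale and were counted at or past 2-fold and 1.5-fold. For scale, the probe sets of the same gene disagreed with a median SD of 0.29 and 0.26 (log2) in the age differences of mdx/MMP-2-/- and mdx, and of 0.21 and 0.20 in the genotype differences at 3 months and 1 month, over 5724 genes. Before scaling, 2% trimmed means were 122 and 97.5 in mdx/MMP-2-/- at 3 months and 1 month and 90.4 and 91.3 in mdx at those ages. Mmp2 fitted the genotype labels: it was 19.7-fold lower in mdx/MMP-2-/- at 3 months (40.9 against 805) and 39.9-fold lower at 1 month (24.7 against 985.5). Dmd, the dystrophin gene that is defective in all groups, gave 113 in mdx/MMP-2-/- and 154 in mdx at 3 months, and 124 and 123 at 1 month. The muscle label was borne out by fibre markers, of which 8 of 8 were above the floor on every array.

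Decorin, the class I member that binds collagen and TGF-beta, had a steady, very bright signal. Its brighter probe set gave 7912 in mdx/MMP-2-/- and 7691 in mdx at 3 months, and 7133 and 6902 at 1 month. The dim Dcn probe set gave 50.7 in mdx/MMP-2-/- and 31.4 in mdx at 3 months, and 50.4 and 45.6 at 1 month. The bright probe set therefore showed little difference in any comparison (0.04 to 0.16), while the dim one was lowest in mdx at 3 months.

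Biglycan, which binds collagen and can signal through Toll-like receptors when set free, was low in a single array, mdx at 3 months, by all 3 of its probe sets. The brightest gave 2224 in mdx/MMP-2-/- and 1083 in mdx at 3 months, and 2768 and 2651 at 1 month. The others gave 2038 and 1758 in mdx/MMP-2-/- against 1256 and 1144 in mdx at 3 months, and 2203 and 2322 against 2190 and 2280 at 1 month. Each of the 3 probe sets was lowest in mdx at 3 months.

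Asporin, which competes with decorin for collagen, gave different pictures by its probe sets. The brighter gave 876 in mdx/MMP-2-/- and 793 in mdx at 3 months, and 900 and 1083 at 1 month. The dimmer gave 294 and 312 at 3 months, and 577 and 599 at 1 month. By the dimmer probe set both 3-month arrays were low, and by the brighter one the mdx array at 1 month was high.

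Lumican, which regulates fibril growth in class II, has a single probe set. It gave 1932 in mdx/MMP-2-/- and 1628 in mdx at 3 months, and 2811 and 3196 at 1 month. Both 3-month arrays lay below both 1-month arrays.

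Fibromodulin, abundant in tendon and a modulator of collagen cross-linking, is covered by 6 probe sets, more than any other member. The brightest gave 1746 in mdx/MMP-2-/- and 1982 in mdx at 3 months, and 1575 and 1649 at 1 month. Across the 4 next brightest, signals lay between 446 and 714 on all arrays. The dimmest gave 281 and 226 at 3 months and 153 and 215 at 1 month, and alone among the 6 it set the mdx/MMP-2-/- arrays apart by age.

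Prolargin, which anchors basement membrane to collagen, had its brighter probe set at 315 in mdx/MMP-2-/- and 344 in mdx at 3 months, and at 249 and 223 at 1 month. The dimmer one gave 30.0 and 45.9 at 3 months, and 39.1 and 40.7 at 1 month. The brighter set was higher in both 3-month arrays, and the dimmer one was not.

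Osteoglycin, a class III member present in bone and in many soft tissues, gave 993 in mdx/MMP-2-/- and 1180 in mdx at 3 months, and 1195 and 1330 at 1 month, by its brighter probe set. Its other probe set gave 269 and 448 at 3 months, and 539 and 627 at 1 month. By both, the mdx/MMP-2-/- array at 3 months was lowest and the mdx array at 1 month highest.

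**Figure D1:**
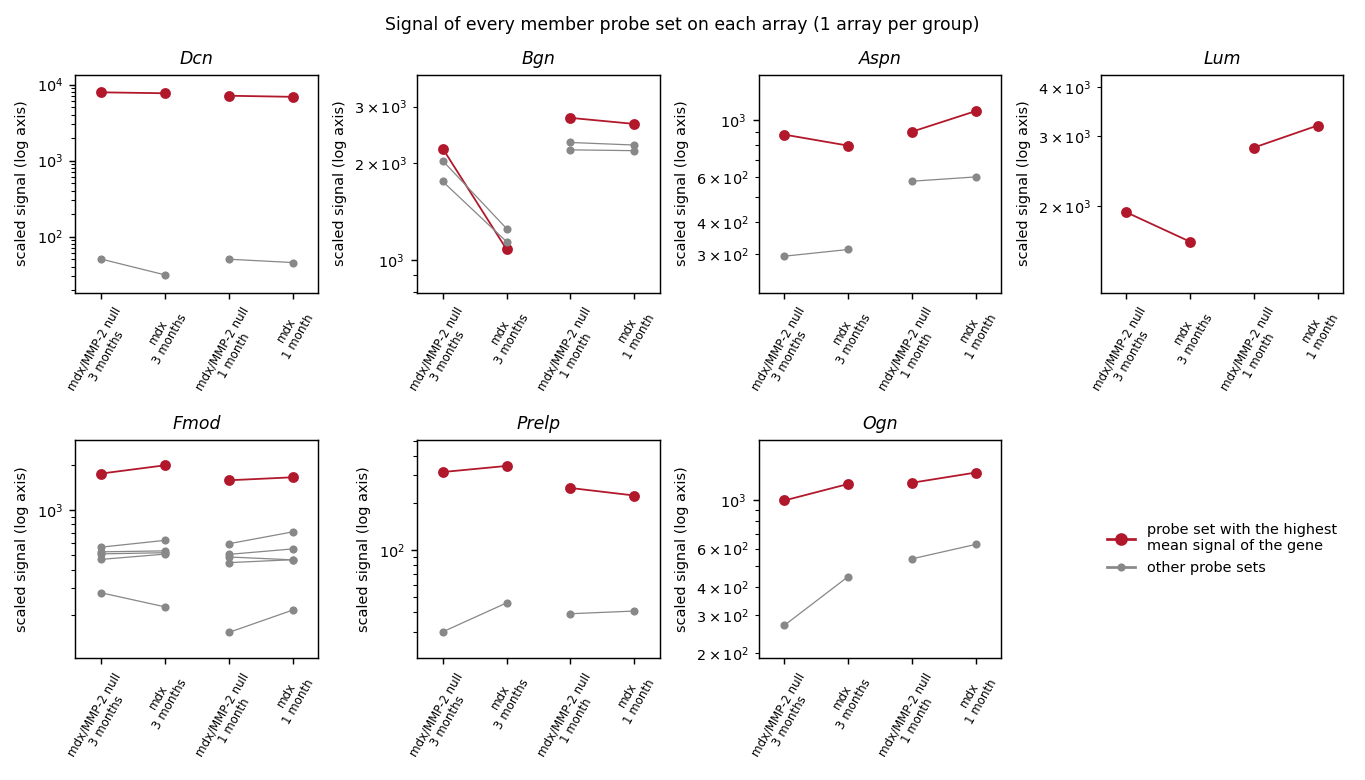
Scaled signal (log axis) of each of the 18 probe sets on the 4 arrays, with the brightest probe set of each gene in red and the others in grey. Lines join the 2 genotypes at the same age. All 3 Bgn probe sets are lowest in mdx at 3 months (1083 to 1256), and Lum is lower in both 3-month arrays (1932 and 1628) than in both 1-month arrays.

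The comparison of ages asks how these genes differ between 3 months and 1 month in dystrophic muscle of each genotype. In mdx, Bgn was 2.45-fold lower at 3 months (log2 difference -1.29), Lum 1.96-fold lower (-0.97) and Prelp 1.55-fold higher (0.63). Aspn was 1.36-fold lower (-0.45) and Ogn 1.13-fold lower (-0.17), whereas Dcn and Fmod were 1.11-fold and 1.20-fold higher. For each gene these values come from the brightest probe set. The 7 genes thus had no common direction, with 3 higher and 4 lower and a median of -0.17, against 0.00 over all 12801 genes above the floor.

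At least 2-fold, 1 of the 7 was lower in mdx (Bgn) and 0 were higher, where 1.55% of all genes were lower and 0.976% higher. At least 1.5-fold, 2 were lower (Bgn and Lum) and 1 was higher (Prelp), against 7.27% and 5.97% of all genes. The other Bgn probe sets were 1.99-fold and 1.74-fold lower, so the 2-fold mark was passed by the brightest alone. That brightest set is of a kind prone to cross-hybridise (named _x_at), and without such sets Bgn gave -0.80. Under every alternative scaling, floor and choice of probe set that was tried, Bgn (-1.34 to -0.80), Lum (-1.02 to -0.86), Aspn and Ogn stayed lower and Prelp stayed higher in mdx. The choice of probe set could not move Lum, which has a single one, in this or any other comparison. The brightest probe sets lay far above every floor, so the choice of floor hardly moved any member. Fmod turned to -0.19 when probe sets prone to cross-hybridise were left out, and Dcn to -0.19 when its probe sets were averaged.

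In mdx/MMP-2-/-, Lum was 1.46-fold lower at 3 months (-0.54), Bgn 1.24-fold lower (-0.32) and Ogn 1.20-fold lower (-0.27). Prelp was 1.26-fold higher (0.34), Dcn and Fmod were each 1.11-fold higher, and Aspn was 1.03-fold lower. The median was -0.04, against 0.00 over all genes. None of the 7 reached 1.5-fold either way, beside 7.41% of all genes higher and 6.70% lower by that much, and 1.47% and 1.22% at least 2-fold. Only Lum kept its direction in mdx/MMP-2-/- under all alternatives (-0.54 to -0.17). With a single probe set, however, Lum could be moved by the choice of scaling but not by the choice of probe set. On unscaled signals Bgn gave 0.03, below the median of all genes, which was then 0.26.

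Probe sets other than the brightest gave larger age differences in mdx/MMP-2-/-. The dimmer sets of Ogn and Aspn were 2.01-fold and 1.96-fold lower at 3 months, and that of Prelp 1.31-fold lower, against the direction of its brighter set. Of the 6 Fmod sets, 5 were higher and 1 lower, with the dimmest 1.84-fold higher. In mdx the dimmer sets of Ogn and Aspn were 1.40-fold and 1.92-fold lower, and the dim Dcn set was 1.45-fold lower. Both Aspn sets, both Ogn sets, all 3 Bgn sets and Lum were thus lower at 3 months in both genotypes. For the brighter Aspn set in mdx/MMP-2-/- the difference was only -0.04. There Aspn turned to 0.30 with median scaling and 0.36 on unscaled signals, above the medians of all genes (0.19 and 0.26). Dcn, Fmod and Prelp each had probe sets on both sides in at least 1 genotype.

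A control ratio used to judge RNA integrity was higher at 3 months, clearly for Actb and slightly for Gapdh. The 3'/5' signal ratio of Actb, which grows when the 5' part of transcripts is lost, was 2.09 in mdx/MMP-2-/- and 2.36 in mdx at 3 months, against 1.05 and 1.19 at 1 month. That of Gapdh was 0.935 and 0.936 at 3 months, against 0.850 and 0.883 at 1 month. Where each probe set lies along its transcript was not used here, so the part of this shift in the age differences was not tested. Fibroblast markers, of which 9 of 10 were above the floor, summed to 5399 in mdx/MMP-2-/- and 4790 in mdx at 3 months, and 5474 and 5710 at 1 month, with 0 of the 9 at the floor on any array. By age, 8 of these 9 were lower at 3 months in mdx (median -0.37), and 5 of 9 in mdx/MMP-2-/- (median -0.09). Over all genes, 48.0% were higher at 3 months in mdx and 50.1% in mdx/MMP-2-/-. Endothelial markers were lower at 3 months for 6 of 6 in mdx/MMP-2-/- (median -0.74) and 5 of 6 in mdx (median -0.71), with sums of 1035 in mdx/MMP-2-/- and 1115 in mdx at 3 months, and 1782 and 1580 at 1 month. Their part in the age differences was not tested. In these whole-muscle RNAs, fewer cells of a type and less RNA per cell cannot be told apart.

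**Figure D2:**
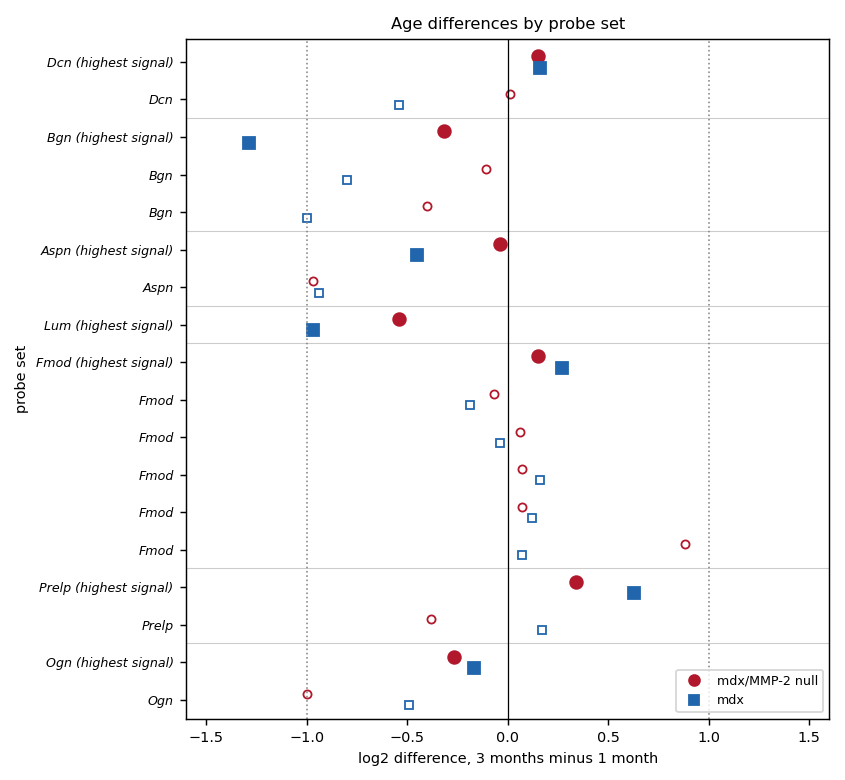
Age difference (log2, 3 months minus 1 month) of each probe set in mdx/MMP-2-/- (red circles) and mdx (blue squares). Filled symbols are the brightest probe set of a gene and dotted lines mark 2-fold. Bgn lies further left in mdx (-1.29 to -0.80) than in mdx/MMP-2-/- (-0.40 to -0.11), and the Fmod sets cluster near 0 apart from the dimmest in mdx/MMP-2-/- (0.88).

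The comparison of genotypes at 3 months asks what loss of MMP-2 alters in older dystrophic muscle. Bgn was 2.05-fold higher in mdx/MMP-2-/- (log2 difference 1.04) by its brightest probe set, and 1.62-fold and 1.54-fold higher by the other 2. The brightest set is of a kind prone to cross-hybridise, and without such sets Bgn gave 0.70. Lum was 1.19-fold higher (0.25), Aspn 1.10-fold higher (0.14) and Dcn 1.03-fold higher (0.04). Ogn was 1.19-fold lower (-0.25), Fmod 1.13-fold lower (-0.18) and Prelp 1.09-fold lower (-0.13). Of the 7, 1 was at least 2-fold higher, where 1.18% of all genes were, and 0 were at least 2-fold lower, where 0.422% were. The median of the 7 was 0.04 against 0.00 over all genes.

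Osteoglycin and the class II members prolargin and fibromodulin were on the other side of 0. Both Ogn probe sets (-0.74 and -0.25), both Prelp probe sets (-0.61 and -0.13) and 5 of 6 Fmod probe sets were lower in mdx/MMP-2-/- at 3 months. With unscaled signals Ogn, Prelp and Fmod gave 0.18, 0.32 and 0.23, but the median of all genes then stood at 0.41, so they lay below that median there too. Bgn was above 0 under every alternative, between 0.70 and 1.42, and Lum between 0.25 and 0.65. The dim Dcn set was 1.61-fold higher (0.69), while the bright one gave 0.04, or -0.11 with median scaling and -0.01 with cyclic loess. Aspn turned to -0.09 without probe sets prone to cross-hybridise.

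Markers of other cells differed between these same arrays. Macrophage markers, all 9 above the floor, summed to 9406 in mdx/MMP-2-/- and 6361 in mdx at 3 months, against 8484 and 9079 at 1 month, with 1 of the 9 at the floor in mdx/MMP-2-/- at 1 month. The 5 neutrophil markers above the floor, of 8 listed, summed to 663 and 87.7 at 3 months, and 194 and 173 at 1 month, with 1 and 2 of the 5 at the floor at 3 months and 1 and 0 at 1 month. At 3 months 9 of 9 fibroblast markers were higher in mdx/MMP-2-/-, where 47.6% of all genes were. The median of the 9 was 0.14 with no gene at 1.5-fold, and their sums are given above. The part of these cells in the Bgn difference was not tested. Since Bgn is X-linked, sex was looked at: the Y-linked Eif2s3y gave 638 and 617 at 3 months and 565 and 480 at 1 month, and Xist at most 23.0 on any array, so no array stood apart.

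At 1 month the genotypes differed little. Aspn was 1.20-fold lower in mdx/MMP-2-/- (-0.27), Lum 1.14-fold lower (-0.19), Ogn 1.11-fold lower (-0.15) and Fmod 1.05-fold lower (-0.07). Prelp was 1.12-fold, Bgn 1.04-fold and Dcn 1.03-fold higher. None of the 7 reached 1.5-fold, beside 3.52% of all genes higher and 3.56% lower by that much, and 0.570% and 0.578% at least 2-fold. The median was -0.07 against 0.00. All 3 Bgn probe sets gave between 0.01 and 0.06. Prelp turned to -0.06 without probe sets prone to cross-hybridise. Bgn and Dcn each turned to -0.11 with median scaling, where the median of all genes was -0.10. Aspn, Lum, Ogn and Fmod stayed below 0 under every alternative.

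The difference between genotypes was larger at 3 months than at 1 month by 0.98 (log2) for the brightest Bgn probe set, and by 0.69 and 0.59 for the others. It was larger by 0.43 for Lum and by 0.41 for the brighter Aspn set, and the dimmer one gave -0.03. For Ogn the value was -0.10 and -0.52 by its 2 probe sets, and for Prelp -0.29 and -0.56. With 1 array per group these differences of differences have no test.

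**Figure D3:**
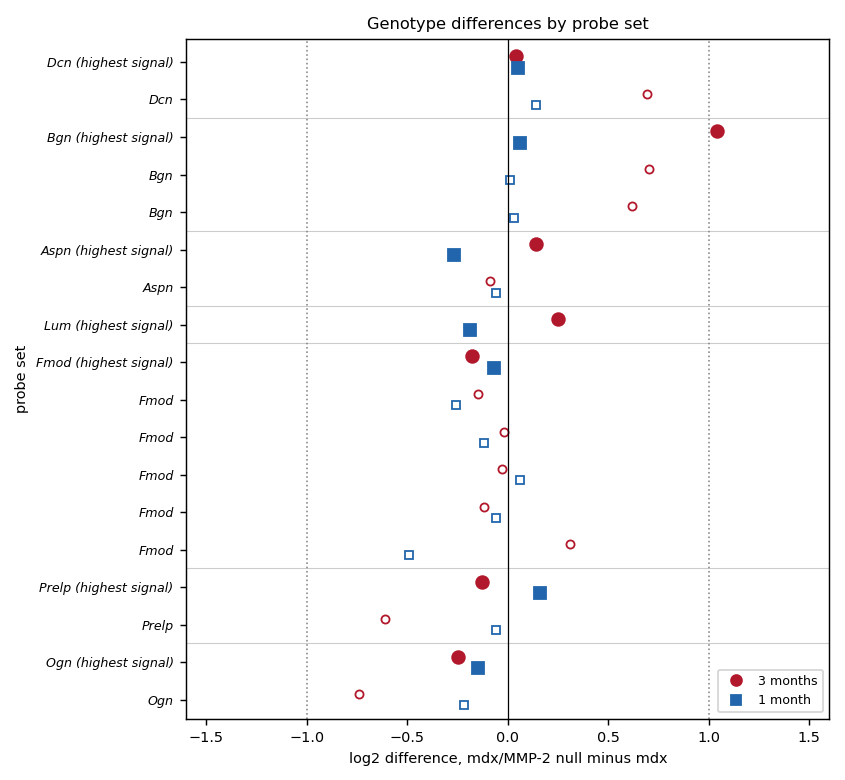
Genotype difference (log2, mdx/MMP-2-/- minus mdx) of each probe set at 3 months (red circles) and 1 month (blue squares), with filled symbols for the brightest probe set of a gene and dotted lines at 2-fold. At 3 months the 3 Bgn probe sets lie at 0.62 to 1.04 and at 1 month at 0.01 to 0.06. Both Ogn probe sets lie below 0 at both ages.

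The 4 arrays allow a single fit with an error term, in which genotype and age add up and any interaction counts as error, with 1 residual degree of freedom per gene. In this limma fit over 12801 genes, Lum averaged -0.76 ± 0.18 (SE) for 3 months against 1 month, with an adjusted p of 0.29. Bgn averaged -0.80 ± 0.27 with an adjusted p of 0.33, and Prelp 0.48 ± 0.16 with an adjusted p of 0.33. For genotype, Bgn averaged 0.55 ± 0.27 with an adjusted p of 0.98 in limma. At an adjusted p of 0.05, limma called 0 of the 7 and 0 of all genes for age and for genotype (0% of all genes). At an unadjusted p of 0.05, limma called 3 of the 7 for age (Lum and Bgn lower, Prelp higher), where 7.05% of all genes were called lower and 6.66% higher. It called 0 of the 7 for genotype, where 2.52% were called higher and 1.85% lower. With a variance prior that follows signal, limma called Lum alone of the 7 for age (adjusted p = 0.049), where 130 of all 12801 genes were called.

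Further members of the family were listed as well. Of 11 further family members listed, 9 had a single-gene probe set and 6 were above the floor. Kera, keratocan, the class II neighbour of Lum, was 2.90-fold lower at 3 months in mdx/MMP-2-/- (129 against 372) and 2.37-fold lower in mdx (200 against 472). It was the only one of the 6 to pass 2-fold by age, and at 3 months it was 1.55-fold lower in mdx/MMP-2-/- than in mdx. Omd, the neighbour of Aspn and Ogn, was 2.01-fold lower in mdx/MMP-2-/- at 1 month (40.2 against 81.0). Chad, chondroadherin of cartilage, was lower in mdx/MMP-2-/- by 1.74-fold at 3 months (73.1 against 127) and by 1.72-fold at 1 month (78.9 against 136). The median of the 6 was 0.01 and -0.04 for age in mdx/MMP-2-/- and mdx, and -0.15 and -0.09 for genotype at 3 months and 1 month.

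Tendon and cartilage markers were uneven across the same arrays. The 6 tendon markers summed to 2813 in mdx/MMP-2-/- and 2218 in mdx at 3 months, and 3410 and 3227 at 1 month. By age, 5 of the 6 were lower and 1 higher at 3 months in each genotype, with medians of -0.28 in mdx/MMP-2-/- and -0.40 in mdx. Tnmd, tenomodulin of tendon, was 2.17-fold lower at 3 months in mdx/MMP-2-/- and 2.49-fold lower in mdx. The marker that was higher at 3 months was Comp in mdx/MMP-2-/- (1.72-fold) and Scx in mdx (1.53-fold). At the floor was 1 of the 6 in each 3-month array and 0 in each 1-month array. The 6 cartilage and bone markers above the floor, of 9 listed, summed to 98.3 and 65.2 at 3 months and 207 and 467 at 1 month, with 4 of 6 at the floor in each 3-month array, 2 in mdx/MMP-2-/- at 1 month and 0 in mdx at 1 month. Their part in these differences was not tested.

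Genes that build the sugar chains of these proteins were listed too. Of 21 enzymes of chondroitin and dermatan sulfate synthesis listed, 16 were above the floor, with medians of 0.09 and -0.03 for age in mdx/MMP-2-/- and mdx and of 0.20 and 0.04 for genotype at 3 months and 1 month. Chst11, a chondroitin 4-O-sulfotransferase, was 2.04-fold higher in mdx/MMP-2-/- at 3 months (80.7 against 39.5). Ust, a 2-O-sulfotransferase of the same chains, was at least 3.33-fold lower there (7.505 against 58.0, with the floor at 17.4). Chpf and Chpf2, which take part in chain polymerisation, were 1.75-fold and 1.73-fold higher at 3 months. Of 7 enzymes of keratan sulfate synthesis 3 were above the floor (median 0.26 for genotype at 3 months), among them Chst1, 2.03-fold higher in mdx/MMP-2-/- at 1 month (56.8 against 28.0).

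The collagens that the family binds were lower at 3 months for 12 of 12 genes in each genotype, with medians of -0.48 in mdx/MMP-2-/- and -0.88 in mdx, beside -0.04 and -0.17 for the 7 proteoglycans. Over all genes, 50.1% were higher at 3 months in mdx/MMP-2-/- and 48.0% in mdx. In mdx 4 of the 12 were at least 2-fold lower, where 1.55% of all genes were. Col11a1, of a fibril collagen best known from cartilage, was 2.99-fold lower in mdx (80.8 against 242). Col1a1, of the main fibril collagen, was 2.37-fold lower in mdx (1823 against 4327) and 1.51-fold lower in mdx/MMP-2-/- (2439 against 3681). By their brightest probe sets Bgn, Lum, Aspn and Ogn were lower with the collagens in mdx, and Dcn, Fmod and Prelp were higher. Between genotypes at 3 months, 10 of the 12 collagens were higher in mdx/MMP-2-/-, where 47.6% of all genes were. The collagen median was 0.28, with 0 at 1.5-fold, beside a median of 0.04 for the 7 proteoglycans. The brightest Bgn probe set alone gave 1.04.

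Genes that act around biglycan and decorin were listed as well. All 8 genes of the danger signalling set off by biglycan were higher in mdx/MMP-2-/- at 3 months (median 0.70), where 47.6% of all genes were. Of the 8, P2rx7 was higher by 1.001-fold only (41.21 against 41.17). At least 1.5-fold higher were 5, where 6.12% of all genes were. Il1b, 1 of these 5, was at least 1.69-fold higher (29.4 against 12.55, which is below the floor). Nlrp3, the inflammasome sensor, was 1.79-fold higher (47.0 against 26.3) and the receptor Tlr2 1.75-fold higher (62.9 against 36.0). At 1 month the 8 had a median of -0.01. These genes are also expressed by macrophages, whose markers differed between the same arrays as given above. Receptors engaged by decorin had a median of 0.35 at 3 months, with Lrp1, an endocytic receptor, 1.42-fold higher (703 against 496).

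Of 6 growth factors above the floor, 5 were higher in mdx/MMP-2-/- at 3 months (median 0.37), where 47.6% of all genes were. Tgfb3, 1 of these 5, was 1.01-fold higher only. Ccn2, connective tissue growth factor, was 1.94-fold higher (1909 against 984), and Tgfb1, the ligand held by decorin and biglycan, 1.55-fold higher (87.4 against 56.4). At 1 month Tgfb1 was 1.72-fold lower (52.5 against 90.5). The 10 proteases that can cut family members had a median of 0.26 at 3 months, with 7 higher and 3 lower in mdx/MMP-2-/-. The largest difference among the 10 was that of the deleted gene itself, Mmp2, 19.7-fold lower. Mmp7 counted as higher by at least 1.04-fold (18.2 against 14.1, which is below the floor). Among the 7 higher, Mmp14, a membrane-bound metalloproteinase, was 1.78-fold higher at 3 months (1158 against 652), and Mmp3, stromelysin, 2.88-fold higher (356 against 124). Adamts4, an aggrecanase, was at least 2.87-fold higher (50.1 against 14.6, which is below the floor). Mmp13, a collagenase, was 7.33-fold lower at 3 months than at 1 month in mdx (22.2 against 162.5), and 3.00-fold lower in mdx/MMP-2-/- than in mdx at 1 month (54.1 against 162.5). The 19 other proteoglycan core proteins above the floor had a median of 0.20 at 3 months, with 1 at least 2-fold higher, Prg4 (lubricin, 797 against 365). Agrn, agrin of the neuromuscular junction, was 3.11-fold lower at 3 months than at 1 month in mdx (58.8 against 183).

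**Figure D4:**
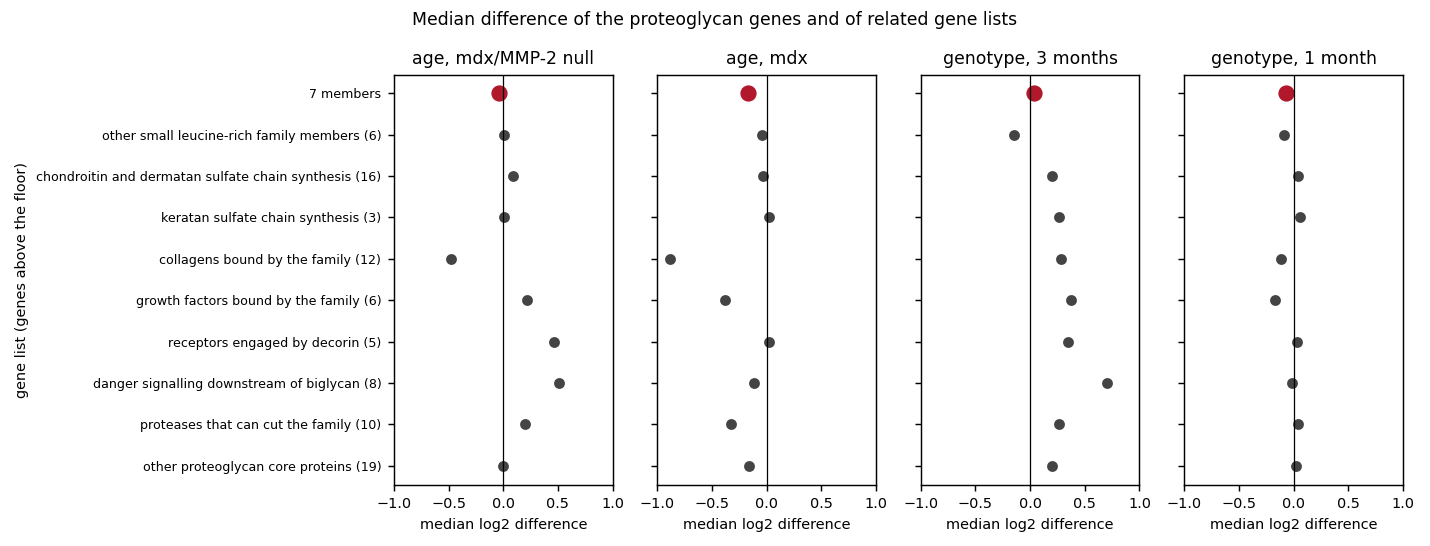
Median log2 difference of the 7 proteoglycan genes (red) and of 9 related gene lists (grey), with the number of genes above the floor in brackets. Panels show the age differences in mdx/MMP-2-/- and mdx (3 months minus 1 month) and the genotype differences at 3 months and 1 month (mdx/MMP-2-/- minus mdx). The collagen list is lowest by age (-0.48 and -0.88) and the danger signalling list highest by genotype at 3 months (0.70). The median of the 7 genes stays between -0.17 and 0.04, while single genes lie further out, from -1.29 to 1.04 (both by the brightest Bgn probe set).

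Likeness between genes was measured as the distance between their log2 profiles over the 4 arrays, each centred on its own mean. Among the members, Dcn and Fmod were closest (0.19), followed by Aspn and Ogn (0.29), which share a gene cluster on chromosome 13, and by Fmod and Prelp (0.32), direct neighbours on chromosome 1. The neighbours Dcn and Lum were 0.94 apart. Bgn was furthest from Prelp (1.53) and closest to Lum (0.59). Other genes were searched without symbols that start with Gm or LOC and a digit or end in Rik. Of the 7628 left with a signal of at least 85.4 on an array, Tubb5 (0.21), Dnm1 (0.29) and Mrc2 (0.29) were nearest to Bgn. Those nearest to Lum were Nin (0.01), Ctsz (0.06) and BC028528 (0.08). Nearest were Ppa1, Parl and Eif4b for Dcn, Stat5a, Glrx and Orc3 for Aspn, Cep68, Rpap2 and Nt5dc1 for Fmod, Atg5, Tapt1 and Art5 for Prelp, and Terf2, Gnas and Ring1 for Ogn. Profiles of 4 arrays are short, so a small distance is easily reached by genes with small differences.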

How the data were processed

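Values were MAS5 intensity signals per probe set on a linear scale, as deposited. Per the submitters' processing notes, the authors used Affymetrix Expression Console, whose version and scaling settings are not given in the sources used here. Of 45101 probe sets, 64 controls were left out, and of the rest 34945 had 1 symbol in the platform annotation, 932 several and 9160 none. Of the single-symbol probe sets, the gene identifiers of 34741 matched the RefSeq table, which changed 0 symbols.

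Groups came from the sample labels. Arrays were quantile normalized in limma 3.58.1 (R 4.3.3), floored at the 50th percentile of signal (17.4) and put on the log2 scale. A gene was represented by its probe set with the highest mean, and 12801 genes above the floor on at least 1 array were kept. Folds against an array at the floor are lower bounds. The additive fit used lmFit and eBayes with Benjamini-Hochberg adjustment. A run on simulated data used even noise, larger age changes than the members had and no interaction of genotype and age. That run therefore does not show how the fit behaves on these arrays. The number of arrays limits the precision.

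The members, lists and tests were chosen with earlier results of these data known. Named are the 7 members, Mmp2 and Dmd, genes from among the 4 largest differences of each list, and the 3 nearest genes per member. Tnmd, Comp, Scx, P2rx7, Tgfb3, Mmp7 and the sex-linked genes were chosen after their values were seen. Skin, Schwann, fat, vessel and satellite cell markers were listed too, with medians from -0.74 (endothelial, age in mdx/MMP-2-/-) to 0.32 (adipocyte, genotype at 3 months) and 2 skin markers above the floor. Counts and distances came from pandas 2.3.3 under Python 3.11.15.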

Additional observations from a re-analysis of the deposited data

Results flagged for a closer look

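Asporin, lumican and prolargin had opposite genotype differences at the 2 ages by their brightest probe sets. Aspn gave 0.14 (log2, mdx/MMP-2-/- minus mdx) at 3 months and -0.27 at 1 month. Lum gave 0.25 at 3 months and -0.19 at 1 month. Prelp gave -0.13 at 3 months and 0.16 at 1 month. The difference between ages was not tested, since each group is 1 array. The other probe set of Aspn was lower in mdx/MMP-2-/- at both ages (-0.09 and -0.06), as was that of Prelp (-0.61 and -0.06), and Lum has no other.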

How the results depend on the processing

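Only differences past 2-fold were checked for a turn in direction. These were Bgn by age in mdx and by genotype at 3 months, and neither turned. Smaller differences did turn under some settings, such as Aspn by age in mdx/MMP-2-/- (-0.97 to 0.36) and Dcn by genotype at 3 months (-0.11 to 0.37). The median of the 7 genes by age in mdx/MMP-2-/- was 0.25 with median scaling and 0.32 without scaling, where the median of all genes was 0.19 and 0.26. By genotype at 3 months it was 0.32 without scaling, beside 0.41 for all genes. The number of members at least 2-fold lower by age in mdx was 2 with cyclic loess and 0 without probe sets named _x_at or _s_at. A 1.5-fold threshold gave 2 lower and 1 higher, and a 3-fold threshold 0 lower. Bgn was no longer at least 2-fold higher at 3 months, leaving 0 members, with the mean of probe sets, without _x_at and _s_at sets, or at 3-fold. For age, limma called 11 genes with median scaling, 79 without scaling, 1 with a floor at the 60th percentile, 130 with a prior that follows signal (1 member, Lum) and 1756 at unadjusted p (3 members). For genotype it called 1 gene with median scaling, with cyclic loess, with the higher floor and with that prior, 21 without scaling and 560 at unadjusted p, and 0 members in each. The cause of these shifts was not tested. Over settings that keep the 2-fold threshold, genes at least 2-fold higher and lower ranged over 93 to 731 and 92 to 593 by age in mdx/MMP-2-/- (188 and 156 as reported), 67 to 713 and 105 to 768 by age in mdx (125 and 198), 73 to 855 and 13 to 549 by genotype at 3 months (151 and 54), and 30 to 539 and 29 to 572 at 1 month (73 and 74). No paired analysis was possible because each group is 1 array, and for the same reason no array could be left out.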
